A study of Mus musculus with 8 samples.

Results

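The transcripts described here are 39 marker genes of the immune cells that live in mouse epidermis or enter it from the blood: Langerhans and other dendritic cells, T cells, macrophages, neutrophils, mast cells and B cells, with Ptprc (CD45) for leukocytes in general. They were taken from a list of gene names, and all probe sets that the platform annotation assigns to one of them were used. Of the 39 genes, 36 had such a probe set, 52 probe sets of the 45037 tested. Ccr7, Lck and Ly6g had none assigned to them alone and were not analysed here. The samples were cells of the interfollicular epidermis, that is, of the skin surface outside the follicles, from mice of the genotype G9a cKO (4 arrays) or G9a WT (4 arrays). G9a is a histone H3 lysine 9 methyltransferase, encoded by Ehmt2. All animals, WT included, were painted once a week on the back with DMBA, a mutagen, and TPA, which promotes tumours, for 6 weeks from an age of 8 weeks. Their epidermis is labelled pre-neoplastic and their age as 15 weeks. The sources used here name neither the Cre driver, the deleted part of Ehmt2, the strain and the sex nor how the cells were isolated. They do not say whether the arrays of a group came from separate animals, so p-values measure only the spread between these samples.

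In untreated mouse epidermis, Langerhans cells, which carry the lectin langerin (Cd207), and dendritic epidermal T cells, which carry a gamma delta T cell receptor with the CD3 chains, Thy1 and the receptor NKG2D (Klrk1), are the main resident leukocytes. TPA is known to irritate skin and to draw neutrophils and macrophages into it, while mast cells and B cells are chiefly found below the epidermis or outside the skin. In bulk RNA, fewer cells of a type and less RNA per cell cannot be told apart.

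Nearly all of these markers showed no detected change between cKO and WT epidermis. Of the 52 probe sets, 1 rose in cKO, that of Ly86, 51 did not pass and none fell (limma, Benjamini-Hochberg adjusted p under 0.05 over all probe sets). This is 1.92% of the member probe sets, where 0.466% of all probe sets passed in either direction, 0.393% as higher and 0.0733% as lower in cKO. At a threshold of 0.1 it was still 1 member probe set, against 0.762% of all. At an unadjusted p under 0.05 the count was 5 of 52, against 7.98% of all probe sets. The median change of the member probe sets was 0.02 on the log2 scale, beside 0.01 over all probe sets, with 30 positive and 22 negative values. The 95% interval of the difference lay within 0.3 of zero for 45 of the 52 probe sets and within 0.5 for 49. The 3 probe sets outside the wider bound all belong to Fscn1. Most of the 52 had low signal, and near background a true difference can be understated. The intervals therefore do not bound changes in cell number.

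Ehmt2, the targeted gene, fell by 2.88 (SE 0.19, limma adjusted p = 0.000244) at 1 of its 2 probe sets, with values of 6.30 to 7.07 in cKO and 9.25 to 9.77 in WT. The other stood at 0.01 (adjusted p = 0.996). Keratinocyte markers were bright on every array: the 18 probe sets of Krt5, Krt14, Krt1, Krt10 and other epidermal genes averaged 10.6 to 10.8 (log2) per array, and none of them passed. The 7 fibroblast, 7 endothelial and 8 melanocyte probe sets did not pass either. On the first principal component of all probe sets, which held 36.9% of the variance, cKO 3, cKO 4 and WT 4 stood at 18.0, 19.2 and 23.5 and the other 5 arrays between -20.6 and -0.54, so that this axis did not follow the genotype. The second component, with 23% of the variance, separated the groups, with cKO at 7.35 to 19.96 and WT at -21.2 to -2.58.

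The signal of most members was low. Their mean over the 8 arrays lay below the median probe set for 42 of the 52. As a rough guide to signal without transcript, 23 probe sets of genes of other organs, such as Gcg, Umod and Cyp7a1, read 3.34 to 6.90 on single arrays, with a median of 4.63. Only 4 member probe sets lay above 6.90 on every array, those of Thy1, 1 of the 4 of Cd247 and 2 of the 4 of Fscn1, compared with 16 of the 18 keratinocyte probe sets and 32.3% of all probe sets. Probes differ in affinity, so that these readings do not rank transcripts by abundance, and a probe set within this range was not shown to detect its gene. RMA values change little near background, where a true difference can be understated.

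**Figure D1:**
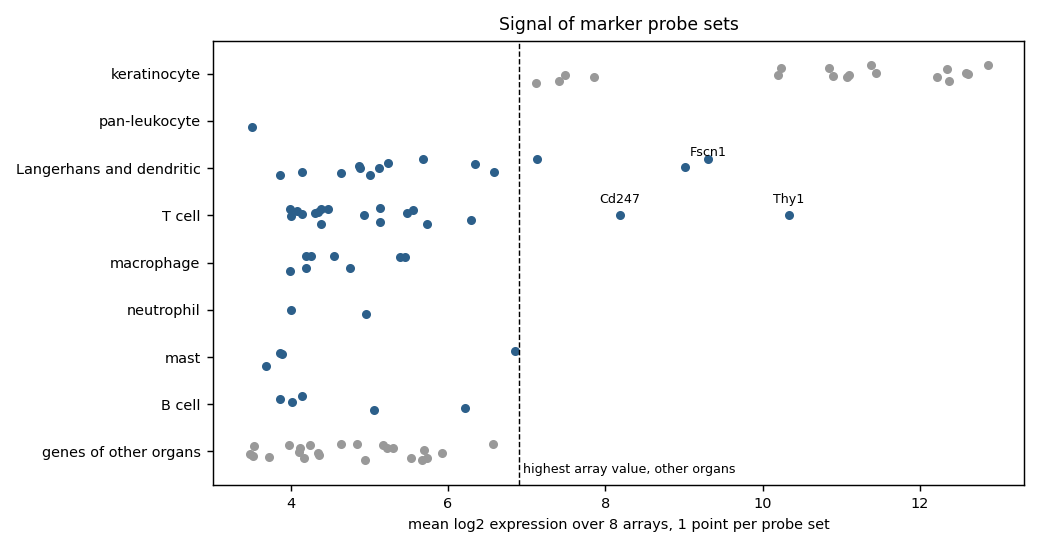
Mean log2 expression over the 8 arrays (x axis) of each probe set, 1 point each, for keratinocyte markers, the 7 groups of immune markers and genes of other organs (rows; vertical jitter only separates points). The dashed line marks 6.90, the highest array value among genes of other organs. Points of Thy1, Cd247 and Fscn1 lie to its right, and most other immune markers share the range of the genes of other organs.

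Ptprc, the CD45 phosphatase of all white blood cells, was among the dimmest readings. It read 3.40, 3.46, 3.49 and 3.501 in cKO 1 to 4 and 3.53, 3.59, 3.63 and 3.48 in WT 1 to 4. The ranges overlapped through WT 4, and the difference of -0.10 (SE 0.05, 95% interval -0.20 to 0.01) did not pass (limma adjusted p = 0.699). Other leukocyte genes, 17 measured with 28 probe sets, held no call. The largest changes among them at the brightest probe set were those of the tetraspanin gene Cd53, at 0.19 (SE 0.06, limma adjusted p = 0.335), and of Lcp1, the actin-bundling plastin of leukocytes, at 0.13 (SE 0.06, adjusted p = 0.608).

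Among the 7 measured genes of Langerhans and other dendritic cells, none of 14 probe sets passed, and the list median was -0.05. Cd207, which encodes langerin, read 4.78, 4.71, 4.61 and 4.50 in cKO 1 to 4 and 4.70, 4.60, 4.67 and 4.51 in WT 1 to 4. The groups overlapped fully, with a difference of 0.03 (SE 0.07, 95% interval -0.13 to 0.19). Itgax (CD11c, an integrin of dendritic cells) stood at 0.02, the transcription factor gene Batf3 at -0.08 and the cytokine receptor gene Flt3 at -0.05. The costimulatory gene Cd86 stood at -0.07 and 0.04 at its 2 probe sets, and Zbtb46, a transcription factor of classical dendritic cells, between -0.09 and 0.05 at its 4.

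Fscn1 encodes fascin, a bundler of actin that mature dendritic cells share with other motile cells. Of all members it varied most among arrays. Its brightest probe set read 9.34, 9.68, 8.82 and 8.41 in cKO 1 to 4 and 9.66, 9.69, 9.91 and 8.91 in WT 1 to 4. The low arrays were cKO 3, cKO 4 and WT 4, the same 3 that stood high on the first principal component, and the groups overlapped. The part of that axis in the result was not tested. The difference was -0.48 (SE 0.29, limma adjusted p = 0.787, exact permutation p = 0.2), with a 95% interval of -1.13 to 0.17. Another bright probe set followed the same arrays, at -0.43 (SE 0.22, adjusted p = 0.713, exact permutation p = 0.143). The remaining ones stood at -0.33 and -0.04. Without both cKO 2 and WT 4, the Fscn1 differences were -0.90, -0.63, -0.10 and -0.74, and that at -0.63 passed (limma adjusted p = 0.0486), in a fit where 1.46% of all probe sets passed. At the brightest probe set, cKO 2 was the highest cKO array and WT 4 the lowest WT array. Leaving out both could therefore only make its difference more negative. Leaving out single arrays moved the brightest probe set from -0.48 to between -0.69 without WT 4 and -0.26 without cKO 4 (limma adjusted p = 0.334 and 0.944), and no Fscn1 probe set passed in these fits.

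The invariant chain and class II genes that Langerhans cells express strongly also varied within both groups. Cd74, which encodes the invariant chain, read 8.79, 9.16, 8.53 and 8.01 in cKO 1 to 4 and 8.26, 8.37, 8.63 and 7.26 in WT 1 to 4, so that WT 4 was the lowest and cKO 4 the next. The differences of 0.49 for Cd74 (SE 0.32, limma adjusted p = 0.814) and 0.40 for the brightest probe set of H2-Aa (SE 0.25, adjusted p = 0.804) did not pass. That H2-Aa probe set is of the type _x_at, whose probes can match transcripts of other genes too. Over the 8 probe sets of Cd74, H2-Aa, H2-Ab1 and H2-Eb1 the mean was 7.87 to 8.73 in cKO and 7.28 to 8.50 in WT. Fscn1 and these genes were thus low together in WT 4 and cKO 4, but their differences between the genotypes had opposite signs. None of the 35 probe sets of 21 other dendritic cell genes passed.

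**Figure D2:**
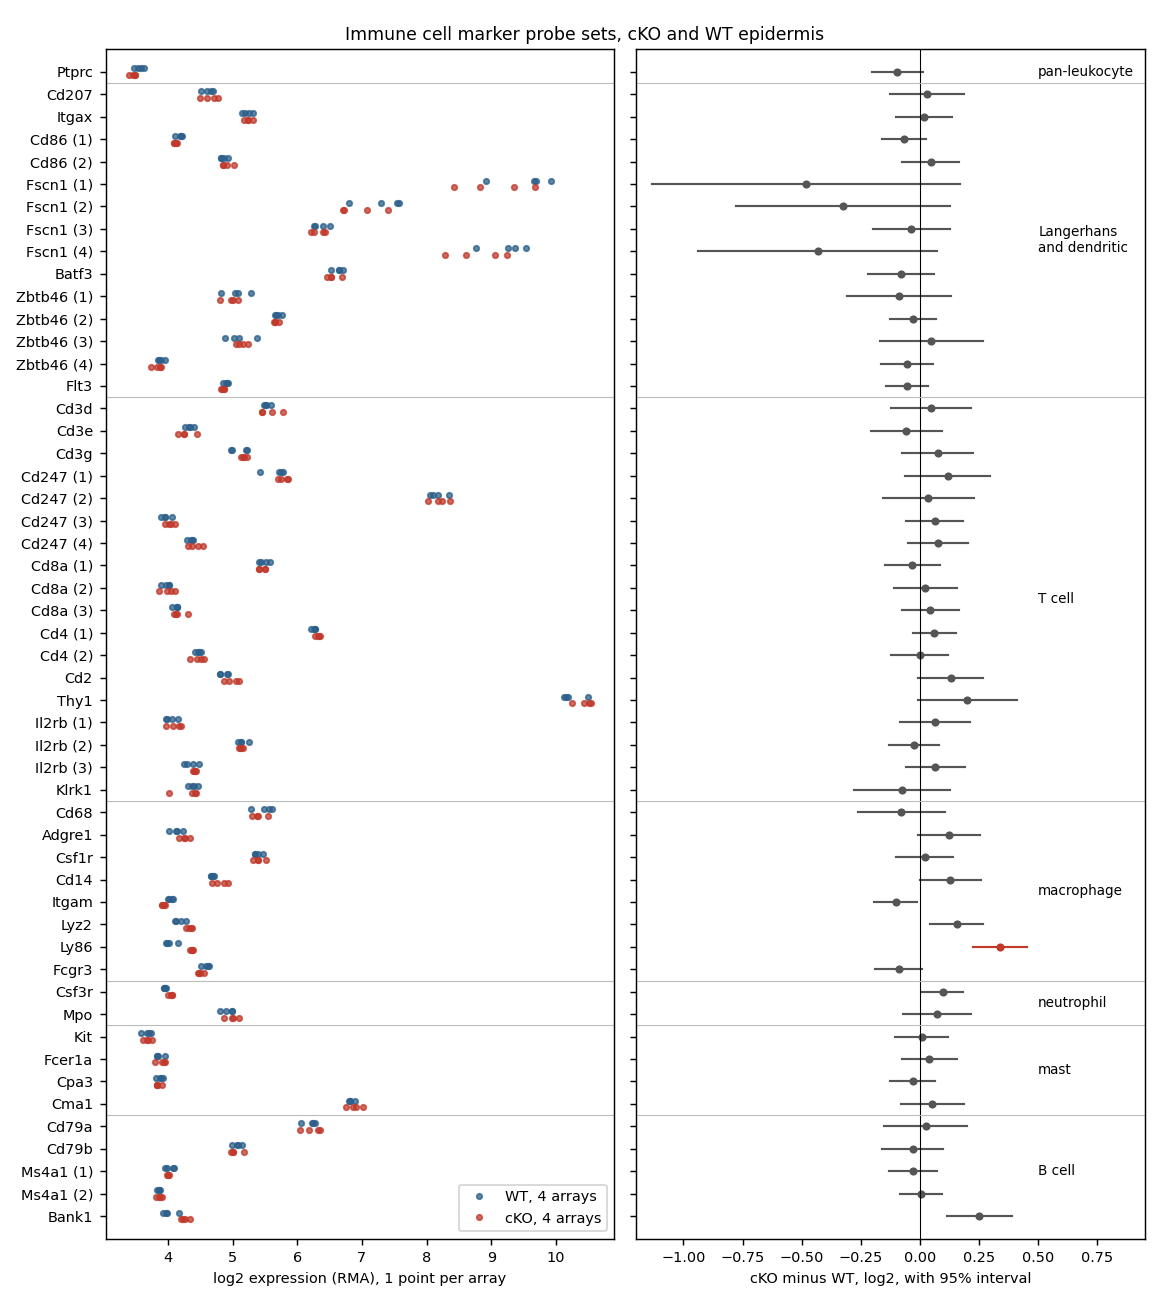
All 52 member probe sets, grouped by cell type (rows; numbers in brackets count the probe sets of a gene). The left panel shows log2 expression, 1 point per array, for WT and cKO; the right panel shows the cKO minus WT difference with its 95% interval from limma, red where the adjusted p is under 0.05. Most intervals include zero; that of Ly86 (0.22 to 0.45) is the red one, and the intervals of 3 Fscn1 probe sets are the widest.

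No probe set of the T cell members passed, out of 18 for 10 genes. The CD3 chains, which carry the signal of the T cell receptor, stood at 0.05 for Cd3d, -0.06 for Cd3e and 0.07 for Cd3g. Cd3e read 4.25, 4.16, 4.25 and 4.45 in cKO 1 to 4 and 4.26, 4.32, 4.40 and 4.35 in WT 1 to 4, and the groups overlapped (SE 0.07, 95% interval -0.21 to 0.09). The zeta chain gene Cd247 stood between 0.04 and 0.12 at its 4 probe sets, with 0.04 at the brightest.

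Thy1 was the brightest T cell probe set and is also known from other cells of the skin, such as fibroblasts. It read 10.54, 10.51, 10.43 and 10.25 in cKO 1 to 4 and 10.18, 10.49, 10.12 and 10.15 in WT 1 to 4. WT 2 lay among the cKO arrays, and the difference of 0.20 (SE 0.09, 95% interval -0.01 to 0.41) did not pass (limma adjusted p = 0.653, exact permutation p = 0.0857). For comparison, the 7 fibroblast probe sets (Col1a1, Col3a1, Dcn and others) averaged 4.48 to 4.62 per array in cKO and 4.52 to 4.61 in WT, and none lay above 6.90 on every array. Their part in the Thy1 values was not tested. Klrk1, the NKG2D receptor, stood at -0.08, Cd2, an adhesion receptor, at 0.13 and the 3 probe sets of the interleukin receptor chain Il2rb between -0.02 and 0.06. The coreceptor genes of conventional T cells, Cd4 (0.06 and 0.00) and Cd8a (-0.03 to 0.04), also did not pass.

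Among 29 other T cell genes with 36 probe sets, 1 rose, that of Cd5. This is 2.78% of them, beside 0.393% of all probe sets as higher in cKO, in a list chosen with earlier results of these data known. Cd5 is a scavenger receptor family protein that dampens T cell receptor signals and also marks some B cells. Cd5 read 7.08, 6.95, 7.12 and 6.82 in cKO 1 to 4 and 6.20, 6.40, 6.18 and 6.38 in WT 1 to 4, with no overlap between the groups. The difference was 0.70 (SE 0.08, limma adjusted p = 0.00538), which is 1.63-fold. Exact permutation gave p = 0.0286, the smallest that 4 against 4 arrays allow. Every probe set whose groups do not overlap has this exact p, and these were 4.89% of all. All WT values and cKO 4 lie within the signal range of genes of other organs, up to 6.90, where a fold can be understated. Of the 23 probe sets of those genes, however, 21 averaged below the median probe set, and Cd5 averaged above it. The call was kept in every alternative run, with 0.66 to 0.76 when single arrays were left out. A neighbour on chromosome 19, the related receptor gene Cd6, stood at 0.11 (SE 0.05, limma adjusted p = 0.611). Its groups did not overlap, as in 4.89% of all probe sets. The other neighbour of Cd5, Vps37c, is not described here. The next largest change in this list was that of Ubash3a, a phosphatase of T cells, at 0.16 (SE 0.06, adjusted p = 0.469). Cd3d, Cd3e and Cd3g did not pass, but none of them lay above 6.90 on every array, so their missing calls say little. The part of T cell number in the Cd5 values was not tested.

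The macrophage group held the single member that passed. Ly86 encodes MD-1, the secreted partner of the Toll-like receptor relative RP105 on B cells, macrophages and dendritic cells. It read 4.35, 4.37, 4.37 and 4.39 in cKO 1 to 4 and 3.99, 4.01, 3.97 and 4.16 in WT 1 to 4. The cKO arrays were nearly alike and all above the WT arrays, of which WT 4 came closest. The difference was 0.34 (SE 0.05, 95% interval 0.22 to 0.45), a 1.26-fold rise, with a limma adjusted p of 0.0255. The exact permutation p of 0.0286 is the one that every probe set without overlap has, which were 4.89% of all. Both means, 4.37 ± 0.02 in cKO and 4.03 ± 0.09 in WT (SD, n = 4 each), lie within the signal range of genes of other organs. When single arrays were left out the difference stayed between 0.32 and 0.38, while the call was lost in 7 of 8 cases (highest limma adjusted p = 0.117) and kept without WT 4. In these fits, 0.464%, 0.291%, 0.24% and 0.404% of all probe sets passed without cKO 1 to 4 and 0.231%, 0.422%, 0.249% and 0.79% without WT 1 to 4. Ly86 also passed after quantile normalization (0.511% of all probe sets), after median centring (0.453%), with another prior (0.517%), with array weights (1.68%) and in tables with 1 value per gene, the brightest probe set (0.977% of genes) or the mean (1.0%). With the replicate number as a block, where 0.389% passed, it did not. The upper 50% of probe sets by mean, of which 0.586% passed, do not include it.

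The sequences just upstream of Ly86 and Cd5 are shown since these are the immune genes that passed. No measurement in these arrays bears on their promoters. They are the 250 bases before the gene start in RefSeq (GRCm38.p6), 5′ to 3′ on the strand of the gene, with CpG dinucleotides in capitals. Ly86 lies on the plus strand, chr13:37345095-37345344, and Cd5 on the minus strand, chr19:10738975-10739224.
Ly86: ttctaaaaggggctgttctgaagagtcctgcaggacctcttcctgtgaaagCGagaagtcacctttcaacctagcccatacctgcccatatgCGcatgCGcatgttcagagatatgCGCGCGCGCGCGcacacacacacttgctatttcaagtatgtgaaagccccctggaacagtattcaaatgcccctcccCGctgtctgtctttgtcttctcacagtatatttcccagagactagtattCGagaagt
Cd5: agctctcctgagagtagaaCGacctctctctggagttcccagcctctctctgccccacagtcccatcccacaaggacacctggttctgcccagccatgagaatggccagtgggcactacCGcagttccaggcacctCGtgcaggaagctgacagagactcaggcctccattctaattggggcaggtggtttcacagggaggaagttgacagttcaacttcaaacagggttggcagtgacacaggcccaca
The Ly86 window holds 11 CpG, several of them in a run of alternating bases, and the Cd5 window holds 3. Windows were found for 26 of the 36 measured members, 29 in all, with 0 to 27 CpG and a median of 4, beside a median of 6 over 32851 windows. At least 11 CpG were found in 6 of the 29 (20.7%) and in 35.6% of all windows.

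No other macrophage member passed. Cd68, a lysosomal glycoprotein, read 5.56, 5.38, 5.40 and 5.29 in cKO 1 to 4 and 5.61, 5.57, 5.28 and 5.49 in WT 1 to 4, which overlap (-0.08, SE 0.08, limma adjusted p = 0.934). Csf1r, the receptor for the macrophage growth factor CSF1, stood at 0.02, Adgre1 (F4/80) at 0.12, the lipopolysaccharide coreceptor gene Cd14 at 0.13 and the Fc receptor gene Fcgr3 at -0.09. Groups that do not overlap were found for Lyz2, the lysozyme gene of myeloid cells, which read 4.37, 4.32, 4.29 and 4.36 in cKO 1 to 4 against 4.12, 4.197, 4.12 and 4.29 in WT 1 to 4, and in the opposite direction for Itgam (CD11b), with 3.96, 3.95, 3.92 and 3.91 in cKO against 4.06, 4.02, 4.08 and 3.996 in WT. Neither passed: Lyz2 stood at 0.15 (SE 0.05, limma adjusted p = 0.404) and Itgam at -0.10 (SE 0.04, adjusted p = 0.520). The Lyz2 probe set is of the type _x_at, whose probes can also match transcripts of other genes.

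Among 22 other macrophage genes, including Mrc1, the C1q genes, Cx3cr1 and Tyrobp, none of 32 probe sets passed. Ly6c1, which is shared by monocytes, endothelium and some lymphocytes, had the largest difference, 0.49 (SE 0.14, limma adjusted p = 0.278), with 9.14, 9.48, 9.26 and 9.30 in cKO 1 to 4 and 8.51, 9.17, 8.90 and 8.63 in WT 1 to 4. WT 2 lay within the cKO range. The phagocyte gene Mpeg1 came next at 0.16 (SE 0.10, adjusted p = 0.807).

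Neutrophil, mast cell and B cell markers gave no call. Csf3r, the receptor for G-CSF, read 4.0, 4.07, 4.07 and 4.05 in cKO 1 to 4 and 3.94, 3.94, 3.97 and 3.96 in WT 1 to 4, so that the groups did not overlap, by a difference of 0.10 (SE 0.04, limma adjusted p = 0.550). Mpo, the myeloperoxidase of neutrophil granules, stood at 0.07 (SE 0.06). The largest change among 12 other neutrophil genes was 0.12 (SE 0.05, adjusted p = 0.604) for S100a9, a calgranulin that keratinocytes also make, followed by Cd177, a neutrophil surface protein, at 0.07.

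Of the mast cell genes, Cma1, a chymase, read 6.75, 7.01, 6.87 and 6.91 in cKO 1 to 4 and 6.82, 6.80, 6.82 and 6.89 in WT 1 to 4, with overlapping groups (0.05, SE 0.06). Kit, the stem cell factor receptor, Fcer1a, the alpha chain of the IgE receptor, and Cpa3, a carboxypeptidase, read 3.59 to 3.96 on all arrays and stood at 0.01, 0.04 and -0.03. None of the 18 probe sets of 13 other mast cell and basophil genes passed. The largest changes there were -0.11 for the transcription factor gene Mitf and 0.10 for Ms4a2, the beta chain of the IgE receptor.

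Among the B cell genes, Cd79a, a signalling chain of the B cell receptor, read 6.33, 6.35, 6.18 and 6.05 in cKO 1 to 4 and 6.23, 6.25, 6.27 and 6.05 in WT 1 to 4, and its groups overlapped (0.02, SE 0.08). Its partner chain gene Cd79b stood at -0.03 and Ms4a1 (CD20) at -0.03 and 0.00. Bank1, a scaffold protein of B cell receptor signalling, had the second largest positive difference of all members. It read 4.21, 4.35, 4.27 and 4.23 in cKO 1 to 4 and 3.97, 4.17, 3.99 and 3.93 in WT 1 to 4, with no overlap. The difference of 0.25 (SE 0.06, 95% interval 0.11 to 0.39, limma adjusted p = 0.182) did not pass. It did with array weights (limma adjusted p = 0.0465), in a fit where 1.68% of all probe sets passed, beside 0.466% in the main fit. None of the 19 probe sets of 13 other B cell genes passed, among them Fcer2a, the low-affinity IgE receptor, at -0.16 and at 0.17 at its other probe set, and the immunoglobulin gene Ighm at 0.09.

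**Figure D3:**
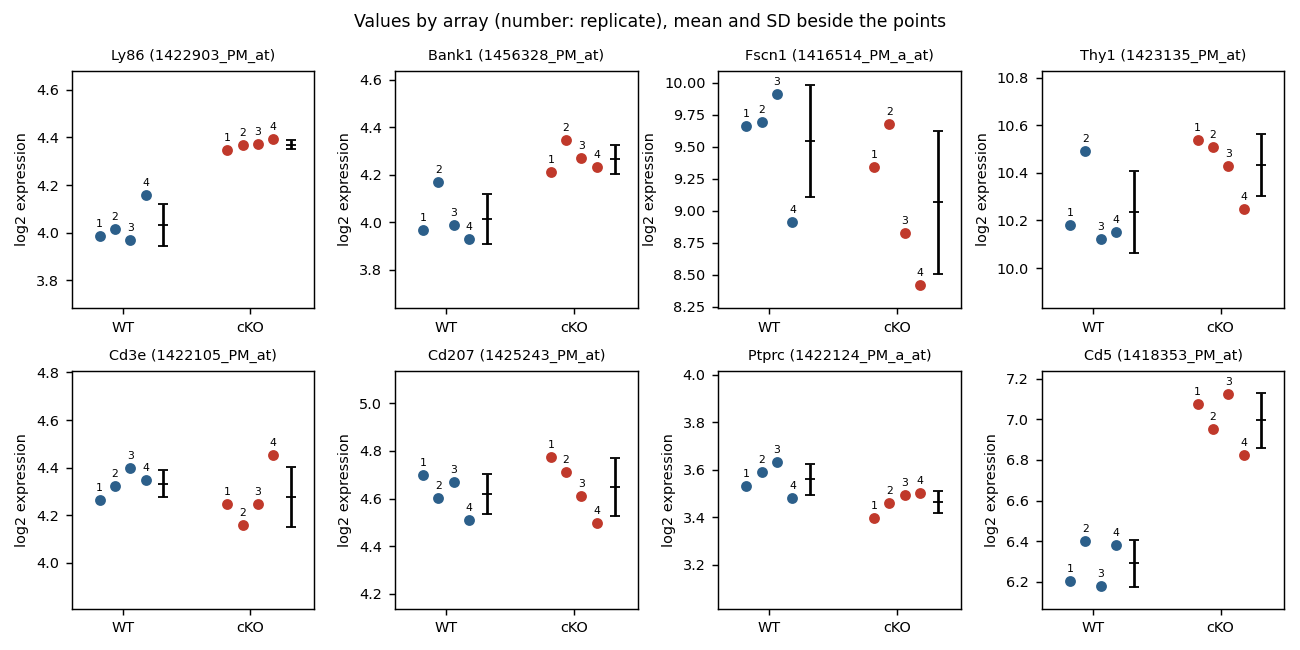
Log2 expression of 7 member genes and of Cd5, each at the probe set named above its panel, with 1 point per array (the number is the replicate) and the mean with SD (n = 4) beside each group. The y axes span at least 1 log2 unit and start above zero. The 4 cKO points lie above all WT points for Ly86, Bank1 and Cd5 and overlap with them for Fscn1, Thy1, Cd3e, Cd207 and Ptprc.

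Ly86, Bank1, Lyz2 and Csf3r were the 4 member probe sets whose cKO arrays all lay above the WT arrays, and Itgam was the 1 for which they all lay below. These 5 are 9.62% of the 52, where 4.89% of all probe sets had groups that do not overlap, 3.17% with cKO higher and 1.72% with cKO lower. All 5 read between 3.91 and 4.39 on every array, within the range of genes of other organs. Among the other immune markers, 127 genes with 180 probe sets, 1 rose (0.556%), none fell, and 7 did not overlap (3.89%).

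The arrays also differed in which members they put at the ends of the range. cKO 4 held the lowest value for 17 of the 52 probe sets and cKO 1 the highest for 13, while cKO 3 held the highest for 1. Over the 8 arrays, the members spanned a median of 0.24 (log2), beside 0.27 for all probe sets, and the widest span was 1.498 for Fscn1. The mean of all 52 probe sets lay between 5.09 and 5.20 in cKO and between 5.10 and 5.18 in WT.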

How the data were processed

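RNA (25 ng) was amplified over 17 cycles, and the product was hybridised to 1-colour arrays. The deposited values are log2 expression per probe set, computed by the authors with RMA, as named in the submitters' processing notes. The RMA version is not given in the sources used here, and the base of the logarithm was inferred from the range (3.06 to 13.0). Since RMA gives each array about the same distribution, a change common to all transcripts would be hidden. Scanner files were not used here. Of 45141 probe sets, 104 controls were left out. The platform annotation names 1 gene for 28898, several for 551 and none for 15588, and current symbols came from a mouse gene table (GRCm38.p6) through Entrez numbers (28689 found). The genotypes were compared over all 45037 probe sets in limma 3.58.1 (R 4.3.3); p-values were two-sided, adjusted by Benjamini-Hochberg and called under 0.05. Exact permutation tests were two-sided over 70 arrangements. Errors of differences are standard errors from the fit. The number of arrays, 4 per group, limits the precision. In simulated data for this comparison (45037 probe sets, 10 runs, 200 changed in each), 73.3% of changes of 0.5 and 96.9% of changes of 1 were recovered, and 5.55% of calls were false, with noise drawn separately for each probe set. Changes were added in full at any signal level, without shifts common to an array. Recovery of changes in members near background can therefore be overstated. Members and lists were chosen with earlier results of these data known, so no list test was run. Values in every array are given for members whose groups do not overlap or that changed by at least 0.4, for Ptprc, Cd207, Cd3e, Cd68, Cma1 and Cd79a, and, chosen after their values were seen, for Thy1, Cd5, Cd74 and Ly6c1. Of other immune markers, those past the threshold and the 2 largest changes of each list are named, and Cd6 was added after its values were seen. Alternatives were other normalizations, a filter on dim probe sets, another prior, array weights, the replicate number as a block, gene tables and leaving out arrays. Promoter sequences are from RefSeq.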

Additional observations from a re-analysis of the deposited data

Results flagged for a closer look

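In 5 of the 104 groups of 4 arrays formed by the 52 member probe sets, 1 array lay far from the other 3, with a gap to the nearest that exceeded Dixon's 95% critical value for its share of the whole range; chance flags about 1 in 20 such groups. Thy1 read 10.49 in WT 2 against 10.12 to 10.18 in the other WT arrays. Klrk1 read 4.02 in cKO 1 against 4.38 to 4.43. The gaps were smaller for a probe set of Cd8a, 4.07 in WT 1 against 4.14 to 4.15, for Fcer1a, 3.96 in WT 3 against 3.83 to 3.85, and for Cpa3, 3.91 in cKO 1 against 3.83 to 3.84.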

How the results depend on the processing

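Where a result changed, the cause was not tested unless the alternative's construction shows it. The count of member probe sets past the threshold was 1 with quantile normalization, median centring, another prior, a threshold of 0.1 and in both gene tables, and 0 to 1 when single arrays were left out. It was 2 with array weights (Ly86 and Bank1) and 2 without both cKO 2 and WT 4 (Ly86 and 1 probe set of Fscn1). It was 0 in the upper 50% of probe sets by mean, which keeps 10 of the 52 and not Ly86. With the replicate block it was 0 as well (Ly86 adjusted p = 0.0811), with 175 calls over all probe sets; same-numbered arrays did not all deviate together (correlations of 0.13, 0.22, -0.62 and 0.37), so the numbers were not taken as pairs. At an unadjusted p under 0.05, 5 of 52 member probe sets (9.62%, beside 7.98% of all) became 14 (26.9%, beside 17.7%) with array weights, 9 with another prior (17.3%, beside 8.00%), 9 without both arrays (17.3%, beside 15.4%), 7 with the block (13.5%, beside 7.47%), 0 of 10 in the upper 50% (beside 7.84%) and 3 to 10 without single arrays (5.77% to 19.2%, beside 5.50% to 12.2%). Calls over all probe sets, 210, became 758 with array weights, 657 without both arrays, 132 in the upper 50%, and 104 to 356 without single arrays. The median member change stayed between -0.0059 and 0.033. Of 36 members at their brightest probe set, 23 kept their sign in every alternative. Signs turned with array weights for Cd207 (-0.022), Itgax (-0.0070), Cd3d (-0.0014), Cd8a (0.0049), Kit (-0.012), Fcer1a (-0.017) and Cd79a (-0.032). Without both arrays they turned for Cd207 (-0.029), Itgax (-0.021), Cd247 (-0.017), Kit (-0.018), Cd79a (-0.067) and Cd79b (0.0025). With the mean of probe sets they turned for Cd86 (-0.011), Cd8a (0.011) and Il2rb (0.034), and with median centring for Kit (-0.0093). Without single arrays, ranges that include zero were -0.014 to 0.079 for Cd207, -0.018 to 0.095 for Cd247, -0.021 to 0.089 for Cd3d, -0.025 to 0.083 for Cd79a, -0.018 to 0.049 for Csf1r, -0.047 to 0.0090 for Il2rb, -0.0090 to 0.047 for Itgax, -0.024 to 0.028 for Kit and -0.12 to 0.020 for Klrk1. Signals near background limit what a missing call says about most members.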
